A study of Homo sapiens with 16 samples.

Results

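The angiopoietins, the vascular endothelial growth factor (VEGF) ligands and the TIE receptors were followed across 3 human cancer cell lines with and without functional STAG2. STAG2 encodes a part of cohesin, which encircles DNA, keeps sister chromatids paired until division and shapes chromosome loops. The set held 9 listed genes: ANGPT1, ANGPT2, ANGPTL2, ANGPTL4, TEK, TIE1, VEGFA, VEGFB and VEGFC. A gene was represented by its probe set, the array's measuring unit, if that probe set was annotated to the gene alone. Of the 9 genes, 8 had such a probe set, each exactly 1, out of 18417 genes in the whole table. ANGPTL2 had none in the annotation used and was not analysed here. Of the 12978 genes tested, 6 were members: ANGPT1, ANGPT2, ANGPTL4, VEGFA, VEGFB and VEGFC. TEK and TIE1 lay under the array median on all 16 arrays and did not pass the filter on low levels. The set was put together knowing that ANGPT2 was higher in HCT116 STAG2 knockouts, so every member's knockout against wild-type values in HCT116 are a description without a test, and so is ANGPT2 wherever those arrays enter.

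Angiopoietin-1 and angiopoietin-2 are secreted ligands of TEK, the TIE2 receptor tyrosine kinase of endothelial cells, and TIE1 is its related co-receptor. ANGPT1 activates TEK and stabilises vessels, while ANGPT2 often opposes it and accompanies vessel remodelling. VEGFA drives vessel growth through the receptors KDR and FLT1, VEGFB binds FLT1, and VEGFC drives lymphatic vessel growth through FLT4. ANGPTL4 is a secreted relative of the angiopoietins that inhibits lipoprotein lipase and does not bind TEK; it is induced by PPAR receptors and by hypoxia. Tumour cells commonly secrete these ligands, while TEK and TIE1 are mainly endothelial.

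RNA was taken from growing, subconfluent and untreated cultures. Each of the 16 cultures was measured on its own Affymetrix Human Gene 1.0 ST array. The H4 line, labelled glioblastoma and STAG2 mutant, gave 3 mutant arrays (parental cells, and clones 10 and 12, both non-recombinant) and 3 arrays of knock-in clones with the mutation corrected after Cre recombination (8-1, 8-3 and 88-1). The STAG2-mutant 42MGBA line gave 3 arrays labelled deficient (parental cells, and knock-in clones 53 and 92 before Cre) and 3 post-Cre arrays labelled corrected (53-1, 53-7 and 92-6). From HCT116, a colorectal carcinoma line with intact STAG2, came 2 arrays of knockout clones (7 and 21) and 2 of non-recombinant wild-type clones (24 and 27). Each array stands for 1 parental culture or 1 clone, and some clones share a parent clone (8-1 with 8-3, 53 with 53-1 and 53-7, 92 with 92-6), so a p-value here speaks of the spread among these cultures alone. The number of arrays, 3 against 3 or 2 against 2, limits the precision.

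STAG2 itself, the check of the labels, had a log2 level of 6.72 ± 0.21 in H4 mutant cultures and 8.91 ± 0.04 in corrected ones (SD, n = 3 each), and 6.85 ± 0.41 in HCT116 knockouts and 9.29 ± 0.01 in wild-type clones (SD, n = 2 each). In 42MGBA it was 5.23 ± 0.44 on arrays labelled deficient and 5.53 ± 0.12 on those labelled corrected (SD, n = 3 each), a difference that did not pass (limma, Benjamini-Hochberg adjusted p = 1.00), so the array does not bear out the 42MGBA labels. Array medians were 6.23 to 6.30 in H4 and 6.24 to 6.29 in HCT116 but at most 5.05 in 42MGBA, which is therefore on another scale. Across lines, 42MGBA is given only by percentile, the position of a gene's level among all 33297 probe sets of its own array. Of the defining markers, EPCAM and CDH1 were above the array median in HCT116 alone and VIM in H4 and 42MGBA alone. CDH2, of the mesenchymal and glial list, was likewise above it in H4 and 42MGBA alone. Its mean percentile was 80.4 to 92.9 there, against 33.4 and 35.1 in HCT116 knockout and wild-type clones. The array median did not divide the lines in this way for the other markers of these lists. Of 9 epithelial and colorectal markers, 5 (KRT8, KRT18, KRT19, CDX2 and CDX1) were above the median in every H4 and 42MGBA group. Of these, KRT19 still stood far higher in HCT116, at mean percentiles of 98.0 and 97.9 against 51.5 to 56.7 in H4 and 42MGBA. The mesenchymal and glial markers CD44 and NES were above it in both HCT116 groups. The glial marker GFAP had a mean percentile of 44.6 to 50.2 over the groups, so the markers do not show a glial identity of H4 and 42MGBA.

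**Figure D1:**
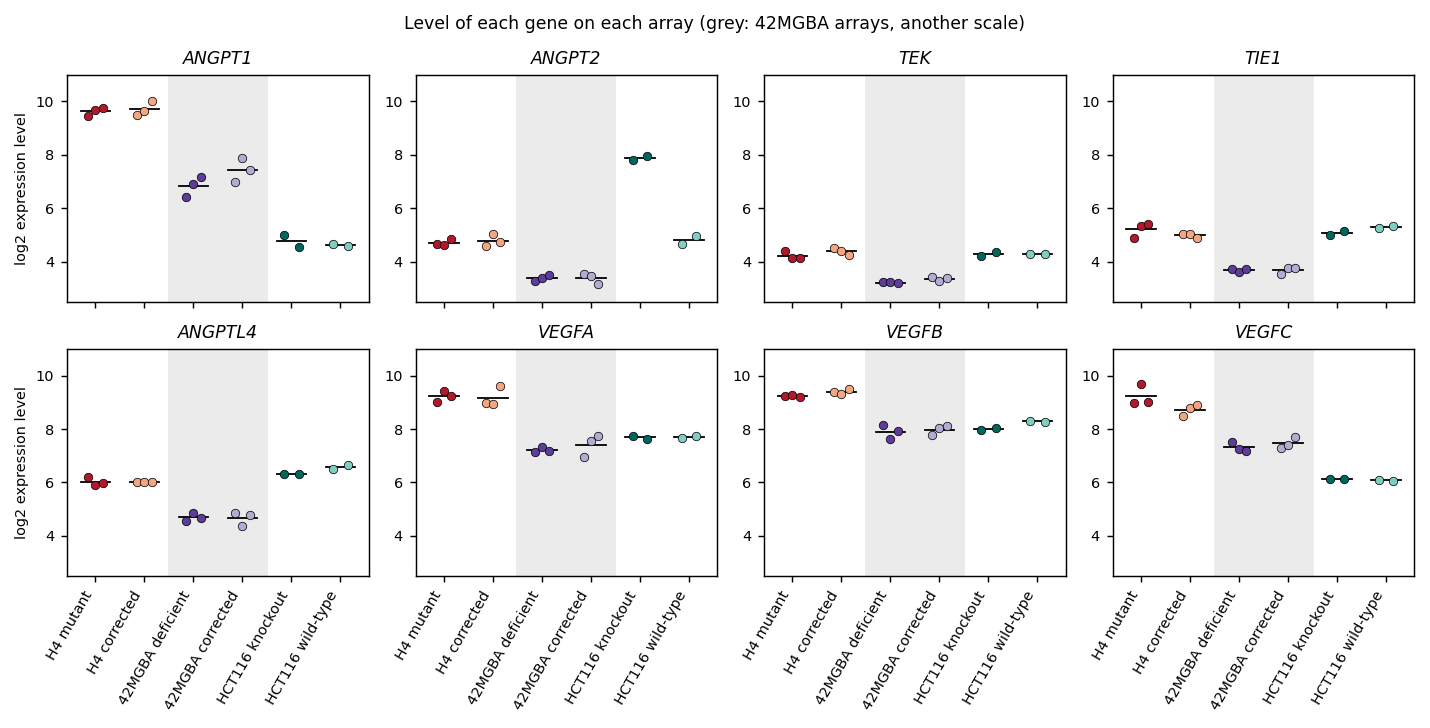
Log2 expression level (vertical axis) of the 8 measured genes on each array, by group (horizontal axis); each point is 1 array and each line the group mean, and the grey band marks the 42MGBA arrays, whose scale differs. ANGPT2 stands at 7.81 and 7.94 on the HCT116 knockout arrays and at 5.03 or less on every other array, while ANGPT1 and VEGFC separate H4 from HCT116.

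The promoters of 3 ligands are shown because VEGFB, VEGFC and ANGPTL4 are the tested members for which promoter sequence was at hand. Each runs 5′ to 3′ on the gene's own strand, 250 bases before to 50 after the RefSeq gene start (assembly GRCh38.p14, RefSeq sequence): VEGFB at chr11:64234334-64234633 on the plus strand, VEGFC at chr4:176792873-176793172 on the minus strand and ANGPTL4 at chr19:8363905-8364204 on the plus strand. Capitals mark matches to the GC box (GGGCGG), to the core promoter box bound by TBP (TATAAA) or to ACGTG, 1 form of the core of a hypoxia response element. Both strands were searched and overlapping matches counted.
VEGFB: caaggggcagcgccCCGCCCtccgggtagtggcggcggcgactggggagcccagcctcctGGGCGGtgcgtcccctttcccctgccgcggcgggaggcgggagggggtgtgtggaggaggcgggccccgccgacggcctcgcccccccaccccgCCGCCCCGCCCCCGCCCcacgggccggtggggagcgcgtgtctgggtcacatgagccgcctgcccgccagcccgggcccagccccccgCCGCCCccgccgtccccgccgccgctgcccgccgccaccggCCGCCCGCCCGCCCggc
VEGFC: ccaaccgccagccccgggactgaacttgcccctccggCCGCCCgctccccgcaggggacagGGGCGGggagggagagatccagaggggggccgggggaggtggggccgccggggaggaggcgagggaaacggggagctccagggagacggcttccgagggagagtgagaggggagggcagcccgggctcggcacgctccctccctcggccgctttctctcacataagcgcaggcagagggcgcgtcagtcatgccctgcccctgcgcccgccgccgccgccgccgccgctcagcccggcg
ANGPTL4: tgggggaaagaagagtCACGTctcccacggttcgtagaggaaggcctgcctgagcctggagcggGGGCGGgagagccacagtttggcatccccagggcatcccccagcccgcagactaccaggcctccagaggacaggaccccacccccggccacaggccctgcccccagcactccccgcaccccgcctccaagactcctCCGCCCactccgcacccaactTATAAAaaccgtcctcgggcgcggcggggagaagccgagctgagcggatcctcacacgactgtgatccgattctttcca
The VEGFB promoter held 84.7% G and C, 42 CpG sites and 9 GC boxes, and the VEGFC promoter 76.3%, 32 CpG sites and 2 GC boxes. The ANGPTL4 promoter held 66.3% G and C, 20 CpG sites, 2 GC boxes, 1 TATAAA and 1 ACGTG. Another form of the hypoxia core, GCGTG, was not searched or marked. It occurs in the printed VEGFB sequence and, on the other strand, in that of VEGFC. Among 35116 promoters of 300 bases in the same table, 45.0% held GGGCGG, 11.5% TATAAA and 21.4% ACGTG, and the medians were 58.7% G and C and 14 CpG sites. A match describes letters of the sequence and is not evidence of binding. Of the 9 members, 6 were in that table, and ANGPT1, ANGPT2 and VEGFA were not used.

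ANGPT2 was high in 1 genotype of 1 line. Its log2 level was 7.81 in HCT116 knockout clone 7 and 7.94 in clone 21, against 4.66 in wild-type clone 24 and 4.95 in clone 27. Both knockouts lay far above both wild-type clones. The difference was 3.06 on the log2 scale (SE 0.16, 95% interval 2.72 to 3.40), 8.37-fold higher in the knockouts, and in size it ranked first among all 12978 tested genes. In that contrast 17 genes passed an adjusted p of 0.05, 0.131% of those tested, and 5277 genes, 40.7%, had groups that did not overlap. These values chose the gene and carry no test here. In bulk RNA, more cells expressing ANGPT2 and more ANGPT2 RNA per cell cannot be told apart.

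On the other 14 arrays ANGPT2 stayed low. In H4 its level was 4.66, 4.64 and 4.84 on the parental, clone 10 and clone 12 arrays, against 4.60, 5.03 and 4.74 in corrected clones 8-1, 8-3 and 88-1. The H4 groups overlapped, and the difference of -0.08 (SE 0.13, 95% interval -0.35 to 0.20) did not pass (limma, Benjamini-Hochberg adjusted p = 0.848). In 42MGBA, the parental, 53 and 92 arrays read 3.26, 3.40 and 3.50, against 3.53, 3.47 and 3.17 on the 53-1, 53-7 and 92-6 arrays labelled corrected. These also overlapped, with a difference of 0.00 (SE 0.13, 95% interval -0.28 to 0.27, limma adjusted p = 1.00). By percentile, ANGPT2 averaged 72.6 in HCT116 knockouts, against 28.8 in HCT116 wild-type clones, 27.5 in H4 mutant, 28.4 in H4 corrected, 25.1 in 42MGBA labelled deficient and 25.0 in 42MGBA labelled corrected cultures. With the groups ordered by these means, only the step from the knockouts to the next group was free of overlap. The gene passed the filter on low levels through the knockout arrays alone. Between lines without STAG2, ANGPT2 was 3.16 lower in H4 mutants than in HCT116 knockouts on the log2 scale, and between lines with functional STAG2 the difference of H4 minus HCT116 was -0.02 (95% interval -0.33 to 0.29), both without a test.

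The genes around ANGPT2 on chromosome 8 were examined because ANGPT2 lies inside an intron of MCPH1, which regulates chromosome condensation; MCPH1 itself has no probe set of its own in the annotation used. AGPAT5, which makes phosphatidic acid and is the nearest tested gene on one side, read 10.50 and 10.78 in knockout clones 7 and 21, against 10.30 and 10.26 in wild-type clones 24 and 27. Its knockouts were above both wild-type clones by 0.36 on average (SE 0.14) without passing (limma adjusted p = 0.557). On the same scale, the differences were 0.13 for ARHGEF10, also without overlap, and 0.05 for KBTBD11 and -0.08 for LINC00965, both with overlap. In HCT116, 40.7% of all genes tested had groups that did not overlap. None of these 4 neighbours passed in HCT116. The antisense transcript MCPH1-AS1, looked at after its values were seen, read 3.73 and 3.51 in knockouts and 3.63 and 3.73 in wild-type clones, all under the array's lower quartile.

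Likeness to ANGPT2 was measured by the correlation of log2 levels over the 16 arrays after each line's mean was removed. The 5 tested genes most like it were TM4SF18, a tetraspan membrane protein (r = 0.92), ITGB8, the integrin beta-8 subunit (0.89), NEBL, an actin-binding protein (0.88), FXYD3, a regulator of the sodium pump (0.87), and UBALD2 (0.87). With all lines centred, the HCT116 arrays set these values. TM4SF18 was 2.11 higher in HCT116 knockouts than in wild-type clones on the log2 scale and ITGB8 2.52 higher. TM4SF18 was above the array median on the knockout arrays alone and so was tested only through them. The other 3 differed less, by 0.86 for NEBL, 0.79 for FXYD3 and 0.47 for UBALD2. In H4 all 5 differences lay between -0.37 and 0.22, and in 42MGBA between -0.30 and 0.00. The arrays share clones and the 5 genes were picked from all tested genes, so the correlations describe these arrays only.

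ANGPT1, the activating ligand, showed the widest gap between lines. In H4 mutants the parental, clone 10 and clone 12 arrays read 9.45, 9.69 and 9.76, against 4.98 and 4.55 in HCT116 knockout clones 7 and 21. With functional STAG2, corrected H4 clones 8-1, 8-3 and 88-1 read 9.48, 9.65 and 10.02, against 4.68 and 4.57 in HCT116 wild-type clones 24 and 27. Every H4 array was thus far above every HCT116 array, whose ANGPT1 lay between the 25.5th and 31.4th percentile. ANGPT1 was 4.87 higher on the log2 scale in H4 mutants than in HCT116 knockouts (SE 0.25, 29.1-fold, limma adjusted p = 5.11e-10) and 5.09 higher in corrected H4 than in wild-type HCT116 (SE 0.25, 34.1-fold, limma adjusted p = 2.99e-10). The gene passed the filter on low levels through H4 and 42MGBA arrays only. A difference from HCT116 was thus built into its being tested, and these p-values support nothing. In 42MGBA it averaged the 78.6th percentile on arrays labelled deficient and the 85.2nd on those labelled corrected, next to 89.8 in H4 mutants and 90.5 in corrected H4. Neighbouring H4 and 42MGBA groups overlapped in that order, and only the drop to HCT116 did not.

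Within lines ANGPT1 did not pass a test. In H4 the difference was -0.08 (SE 0.22, 95% interval -0.56 to 0.40, limma adjusted p = 0.911). In 42MGBA the parental, 53 and 92 arrays read 6.41, 6.89 and 7.18, against 6.98, 7.87 and 7.43 on the 53-1, 53-7 and 92-6 arrays labelled corrected. The groups overlapped, since clone 92 lay above clone 53-1. The mean was 0.60 lower on arrays labelled deficient (SE 0.22, 95% interval -1.07 to -0.12, 1.51-fold), with an unadjusted limma p of 0.0177 and an adjusted p of 1.00. Leaving out single arrays moved the difference between -0.82 and -0.38, the smaller size being without clone 53-7. Each post-Cre clone was above its own parent clone, 53-1 and 53-7 above 53 and 92-6 above 92, and the fit that pairs clones by parent gave -0.41 (SE 0.24, limma adjusted p = 0.722). The H4 difference minus the 42MGBA difference was 0.52 (SE 0.32, limma adjusted p = 0.574). In HCT116 the knockouts were 0.15 above wild-type clones (SE 0.27), with overlap.

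The receptors of the angiopoietins were low on every array. TEK read 4.12 to 4.39 in H4 mutants, 4.25 to 4.52 in corrected H4, 4.20 to 4.38 in HCT116 knockouts and 4.28 to 4.29 in HCT116 wild-type clones, and its mean percentile lay between 21.3 and 24.5 in all 6 groups. TIE1 read 4.90 to 5.41 in H4 mutants and 4.88 to 5.05 in corrected H4, and 5.001 to 5.13 in HCT116 knockouts and 5.25 to 5.34 in wild-type clones. Its mean percentile lay between 29.8 and 35.6. On the 42MGBA arrays TEK read 3.19 to 3.24 where labelled deficient and 3.26 to 3.42 where labelled corrected. These were apart without overlap by -0.14 (limma adjusted p = 1.00 in a fit without a filter on low levels). Of all genes tested, 8.91% did not overlap in 42MGBA. For both receptors every neighbouring pair of groups overlapped in the order of percentiles. In that fit the H4 mutant minus corrected difference was -0.17 for TEK (SE 0.10, limma adjusted p = 0.483) and 0.23 for TIE1 (SE 0.12, limma adjusted p = 0.423). Detection over background was not used here, so these levels are not a statement that the receptors are absent.

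Other endothelial markers were also mostly low. Of 14 markers, TEK, TIE1 and KDR among them, 3 were above the array median in each group: CLDN5, ROBO4 and EGFL7. Their mean percentile over the 14 ranged over the groups from 35.3 to 38.4, and their mean log2 level per array from 5.21 to 5.32 in H4 mutants, 5.20 to 5.32 in corrected H4, 5.30 to 5.35 in HCT116 knockouts and 5.32 to 5.36 in wild-type clones. PECAM1, CDH5 and VWF, which define the endothelium, had mean percentiles of 35.4 or less in every group. In HCT116, where ANGPT2 was higher in the knockouts, the mean marker level was not higher there than in wild-type clones.

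**Figure D2:**
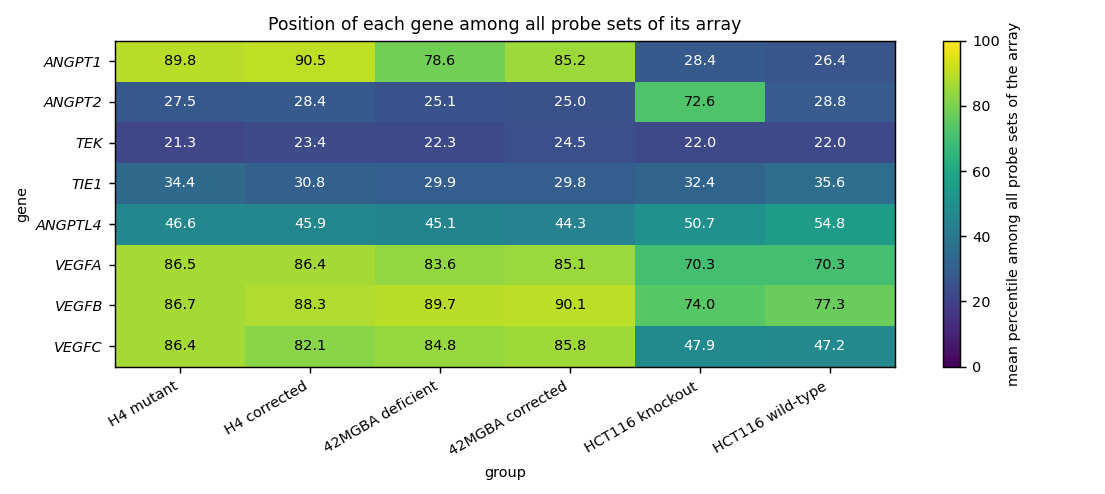
Mean percentile of each of the 8 genes (down the page) among all probe sets of its array, for the 6 groups (across); colour and printed value give the same percentile. ANGPT1, VEGFA, VEGFB and VEGFC sit between 78.6 and 90.5 in H4 and 42MGBA and lower in HCT116, TEK and TIE1 are at 35.6 or less throughout, and ANGPT2 stands out at 72.6 in HCT116 knockouts.

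Of the 6 tested members, ANGPTL4 was the one that passed as lower in H4 than in HCT116 with functional STAG2. Corrected H4 clones 8-1, 8-3 and 88-1 read 6.03, 6.03 and 6.02, against 6.51 and 6.65 in HCT116 wild-type clones 24 and 27. The difference of -0.55 (SE 0.14, 1.47-fold) passed (limma adjusted p = 0.00396). ANGPTL4 passed the filter on low levels through HCT116 arrays only, so a lower level in H4 was built into its being tested. The call supports nothing. Without STAG2, H4 parental, clone 10 and clone 12 arrays read 6.19, 5.89 and 6.00, against 6.31 and 6.31 in HCT116 knockouts 7 and 21, and the difference of -0.28 (SE 0.14) did not pass (limma adjusted p = 0.111). These levels are around the middle of the array, with a mean percentile between 44.3 and 46.6 in the H4 and 42MGBA groups, 50.7 in HCT116 knockout and 54.8 in HCT116 wild-type clones. Within HCT116 both knockouts were below both wild-type clones, by 0.27 on average (SE 0.15), where 40.7% of all genes tested did not overlap. Within H4 the difference was 0.00 (SE 0.13, 95% interval -0.27 to 0.27, limma adjusted p = 0.999) and within 42MGBA 0.03 (SE 0.13, 95% interval -0.24 to 0.30, limma adjusted p = 1.00), with overlap in both.

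The list set beside ANGPTL4 held PPAR receptors, their target genes and partners of lipoprotein lipase. None of its 10 tested members passed in H4, 42MGBA or HCT116. Its medians were 0.02 in H4, -0.04 in 42MGBA and -0.11 in HCT116, where the medians of all tested genes were 0.02, -0.03 and -0.01. The smallest p in H4 belonged to PPARG, the fat cell PPAR receptor, at 7.09 ± 0.20 in mutants and 7.69 ± 0.10 in corrected clones (SD, n = 3 each; difference -0.60, limma adjusted p = 0.0666), and to PLIN2, a lipid droplet protein, at 7.53 ± 0.07 in mutants and 7.86 ± 0.05 in corrected clones (difference -0.33, limma adjusted p = 0.0933). Both had mutant arrays below all corrected arrays, as for 8.68% of all genes tested. LPL, the lipase that ANGPTL4 inhibits, was named after its values were seen. It lay below the array median in every group, at a mean percentile of 25.3 to 41.4. The 5 genes most like ANGPTL4 over the line-centred arrays were HAUS6 (r = 0.84), DIXDC1 (0.82), RSPH6A (0.81), WNT4 (0.80) and EDIL3 (0.79).

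VEGFA was high in H4 and 42MGBA and lower in HCT116, and was not separated by STAG2 status in any line. In H4 it read 9.02, 9.42 and 9.22 on the mutant parental, clone 10 and clone 12 arrays, against 8.96, 8.93 and 9.63 in corrected clones 8-1, 8-3 and 88-1. The corrected clones held both the lowest and the highest of the 6 values. The difference was 0.05 (SE 0.20, 95% interval -0.37 to 0.46, limma adjusted p = 0.942). On the 42MGBA arrays VEGFA was 7.14, 7.33 and 7.16 in the cultures labelled deficient, against 6.96, 7.54 and 7.73 in those labelled corrected, with overlap and a difference of -0.20 (SE 0.20, 95% interval -0.62 to 0.22, limma adjusted p = 1.00). HCT116 read 7.75 and 7.63 in knockouts and 7.65 and 7.73 in wild-type clones, again with overlap.

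Between lines VEGFA was 1.54 higher on the log2 scale in H4 mutants than in HCT116 knockouts (SE 0.22, 2.90-fold, limma adjusted p = 3.59e-05). It was 1.49 higher in corrected H4 than in wild-type HCT116 (SE 0.22, 2.80-fold, limma adjusted p = 4.31e-05). Its mean percentile was 86.5 in H4 mutants and 86.4 in corrected H4, 83.6 in 42MGBA labelled deficient and 85.1 in 42MGBA labelled corrected, and 70.3 in both HCT116 groups, and only the step between 42MGBA and HCT116 was free of overlap. The 5 genes most like VEGFA were ATP2B1 (r = 0.90), a calcium pump, TRIB3 (0.89), induced by endoplasmic reticulum stress and amino acid shortage, AP3M2 (0.81), PCK2 (0.80), the mitochondrial PEP carboxykinase, and PCYT2 (0.80). Among the members themselves the highest correlation on these line-centred values was between ANGPT1 and VEGFA (r = 0.65), then VEGFA and VEGFC (0.52), and the lowest between ANGPT2 and VEGFB (-0.52). These are descriptions over 16 arrays that share clones.

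VEGFB was higher in H4 than in HCT116, as VEGFA was. It read 9.22, 9.29 and 9.20 on the mutant parental, clone 10 and clone 12 arrays of H4, against 9.37, 9.31 and 9.49 in corrected clones 8-1, 8-3 and 88-1. All 3 mutant arrays were below all 3 corrected ones, by little, as for 8.68% of all genes tested. The difference of -0.16 (SE 0.12, 95% interval -0.42 to 0.11) did not pass (limma adjusted p = 0.602). In HCT116, knockouts 7 and 21 read 7.95 and 8.03, against 8.30 and 8.28 in wild-type clones 24 and 27. These groups did not overlap, as for 40.7% of all genes tested in HCT116, with knockouts 0.29 lower on average (SE 0.15). In 42MGBA the groups overlapped, at 8.16, 7.62 and 7.93 in cultures labelled deficient against 7.77, 8.04 and 8.13 in those labelled corrected, and the difference was -0.07 (SE 0.12, 95% interval -0.34 to 0.19, limma adjusted p = 1.00). Between lines VEGFB was 1.24 higher in H4 mutants than in HCT116 knockouts (SE 0.14, 2.36-fold, limma adjusted p = 3.45e-06). With functional STAG2 it was 1.10 higher in H4 (SE 0.14, 2.15-fold, limma adjusted p = 1.05e-05).

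VEGFC had the largest difference of the members within H4. Its level was 8.96, 9.68 and 9.01 on the mutant parental, clone 10 and clone 12 arrays, against 8.49, 8.78 and 8.90 in corrected clones 8-1, 8-3 and 88-1. All mutant arrays were above all corrected arrays, as for 12.1% of all genes tested, clone 10 by the widest margin and the parental array only just. The mutants averaged 9.22 ± 0.40 and the corrected clones 8.73 ± 0.21 (SD, n = 3 each). The difference of 0.49 (SE 0.17, 95% interval 0.12 to 0.86, 1.41-fold) had an unadjusted limma p of 0.0128 and did not pass after adjustment (adjusted p = 0.151). It rested in large part on clone 10: without that array it was 0.26 (SE 0.14, adjusted p = 0.400).

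In 42MGBA the VEGFC levels were not separated by STAG2 label. The 42MGBA arrays labelled deficient read 7.53, 7.26 and 7.17, against 7.30, 7.39 and 7.69 on those labelled corrected. They overlapped, with a difference of -0.14 (SE 0.17, 95% interval -0.51 to 0.23, limma adjusted p = 1.00). The H4 difference minus the 42MGBA difference was 0.63 (SE 0.25, 95% interval 0.11 to 1.15), with an unadjusted limma p of 0.0216 and an adjusted p of 0.335, and 0.40 without clone 10. HCT116 read 6.11 and 6.14 in knockouts and 6.10 and 6.06 in wild-type clones. These were apart without overlap by 0.05 on average (SE 0.21), where 40.7% of all genes tested did not overlap. Between lines VEGFC was 3.09 higher in H4 mutants than in HCT116 knockouts (SE 0.19, 8.54-fold, limma adjusted p = 5.19e-09). It was 2.65 higher in corrected H4 than in wild-type HCT116 (SE 0.19, 6.28-fold, limma adjusted p = 2.93e-08). VEGFC passed the filter on low levels through H4 and 42MGBA arrays only. A difference from HCT116 was thus built into its being tested, and these 2 p-values between lines support nothing. By percentile VEGFC averaged 82.1 to 86.4 in the H4 and 42MGBA groups, which overlapped in order, and 47.9 and 47.2 in HCT116 knockouts and wild-type clones.

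**Figure D3:**
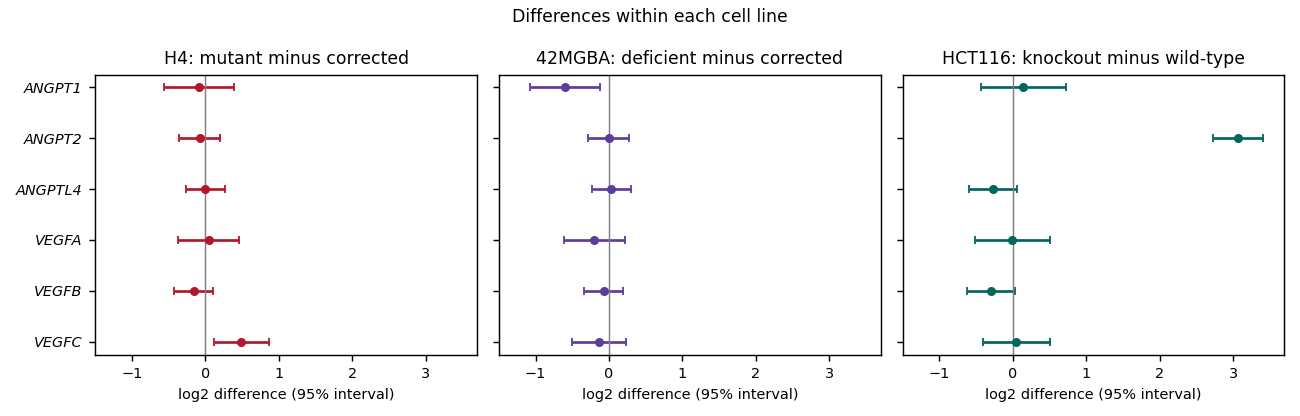
Log2 difference of deficient minus proficient cultures (horizontal axis) for the 6 tested genes (down the page) in H4, 42MGBA and HCT116, with 95% intervals from the limma fit. Most intervals include 0; those that do not are VEGFC in H4 (0.12 to 0.86), ANGPT1 in 42MGBA (-1.07 to -0.12) and ANGPT2 in HCT116 (2.72 to 3.40), and the HCT116 values carry no test.

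Counted over the 6 tested members, 0 passed in H4, where limma called 429 genes, 3.31% of those tested, and 2123 genes had an unadjusted p under 0.05. Of the members, VEGFC was higher and VEGFB lower without overlap in H4, against a background of 12.1% and 8.68% of all genes, and the median difference was -0.04 against 0.02 over all tested genes. In 42MGBA 0 members passed, and limma called 0.0% of all genes, with 512 at an unadjusted p under 0.05. There, 0 of the 6 were free of overlap (8.91% of all genes), and the median was -0.11 against -0.03. In HCT116, ANGPT2 and VEGFC were higher and ANGPTL4 and VEGFB lower without overlap (40.7% of all genes), and the median was 0.02 against -0.01. The difference between H4 and 42MGBA passed for 0 of the 6 members and 0.254% of all genes, 33 by limma and 1465 at an unadjusted p under 0.05.

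Between H4 and HCT116 with functional STAG2, 4 members passed as higher in H4 and 1, ANGPTL4, as lower. Such differences were common: 23.7% of all genes passed as higher and 29.0% as lower. The member median was 1.29 on the log2 scale, against -0.07 over all tested genes. ANGPT1 and VEGFC had passed the filter on low levels through H4 and 42MGBA arrays only and ANGPTL4 through HCT116 arrays only, so a difference between the lines was built into their being tested. Without STAG2, the same 4 members, ANGPT1, VEGFA, VEGFB and VEGFC, passed as higher, where 23.2% of all genes did. Both comparisons set cells of a brain tumour against cells of a colorectal carcinoma; how the lines were divided over hybridisation batches is not given in the sources used here, so line and batch cannot be told apart.

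Genes beside the members on their chromosomes did not all follow them. Of the 4 nearest tested neighbours of each member, in corrected H4 against wild-type HCT116, 1 was higher and 2 lower for ANGPT1, 2 were higher for VEGFC (WDR17 at 2.92 and TENM3, a teneurin cell-adhesion protein, at 5.15), 3 were lower for VEGFB and 0 passed for VEGFA. ANGPTL4 had 1 higher and 2 lower neighbours. In the same comparison, 23.7% of all genes tested passed as higher and 29.0% as lower. With 4 neighbours a member, the counts are a description and were not tested against these shares. WDR17 was above the array median on H4 arrays alone and TENM3 on H4 and 42MGBA arrays alone, so both were tested only through lines where they are high and a difference from HCT116 was built in. In H4, ZFPM2, a zinc finger cofactor of GATA factors and a neighbour of ANGPT1, differed by -0.90 in mutants (SE 0.11), while ANGPT1 differed by -0.08. ZFPM2 was above the array median on corrected H4 arrays alone, so its being tested built in this difference.

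The receptors and co-receptors of the ligands formed a list of 12, of which 7 were tested. KDR, FLT1 and FLT4, the VEGF receptor kinases, and the endothelial phosphatase PTPRB lay under the array median in every group, at mean percentiles of 28.9 or less for KDR, FLT1 and PTPRB and of 43.9 to 46.3 for FLT4. In corrected H4 against wild-type HCT116, 5 of the 7 passed as higher and 0 as lower, against 23.7% and 29.0% of all genes, with a median of 1.40 against -0.07. NRP2 and ITGB3 were above the array median on no HCT116 array and NRP1 on 1 of the 4, so these 3 were tested through the lines where they are high and a difference was built in, and the count supports nothing. Among them NRP1, a co-receptor of VEGFA, read 9.52 ± 0.14 in corrected H4 (SD, n = 3) and 5.43 ± 0.18 in wild-type HCT116 (SD, n = 2), a difference of 4.09 (SE 0.31). NRP2, which also binds VEGFC, was 1.70 higher in H4 (SE 0.30). NRP1, NRP2 and the kinases were named here after their values were seen.

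Within H4, 1 of the 7 receptors passed, as lower. ITGB3, the integrin beta-3 subunit, read 5.49 ± 0.50 in mutants, against 6.58 ± 0.47 in corrected clones (SD, n = 3 each; difference -1.08, SE 0.24, limma adjusted p = 0.0273). It was above the array median on 2 corrected H4 arrays and on no other, so it was tested only through the group where it is high, and the call supports nothing. Genes that passed as lower made up 2.0% of all genes tested. The call was lost without clone 10 (adjusted p = 0.0603), clone 12 (0.110), 8-1 (0.0520) or 88-1 (0.0985), and with the spread of H4 alone (0.168). ITGA5 and ITGB1, subunits of the fibronectin receptor that ANGPT ligands can also bind, had differences of 0.34 (limma adjusted p = 0.366) and -0.17 (0.549). In 42MGBA and HCT116, 0 of the 7 passed.

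The hypoxia pathway was examined because VEGFA and ANGPTL4 are among its targets. Of 7 measured hypoxia-inducible factors and regulators, 1 passed in H4: EPAS1, the HIF-2 alpha subunit, fell to 9.73 ± 0.38 in mutants, against 10.66 ± 0.10 in corrected clones (SD, n = 3 each; difference -0.93, SE 0.20, 1.90-fold lower, limma adjusted p = 0.0218). Of all genes tested in H4, 3.31% passed in either direction and 2.0% as lower. The EPAS1 call was lost without clone 12 (adjusted p = 0.0869), 8-3 (0.0833) or 88-1 (0.0613), with sister clones averaged (0.0802) and with the spread of H4 alone (0.0831). HIF1AN and EGLN1, hydroxylases that restrain the HIF proteins, differed by 0.25 (limma adjusted p = 0.381) and 0.20 (0.453). None of the 7 passed in 42MGBA or HCT116.

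Of 11 measured hypoxia target genes, 0 passed in H4, with 10 positive differences and a median of 0.38, against 0.02 over all tested genes. The smallest p values were those of P4HA1, a collagen prolyl hydroxylase, at 10.18 ± 0.59 in mutants and 9.50 ± 0.10 in corrected clones (SD, n = 3 each; difference 0.67, limma adjusted p = 0.158), of PFKFB4 (0.56, adjusted p = 0.184) and of BNIP3 (0.56, adjusted p = 0.195), a glycolysis regulator and a mitochondrial protein. Without clone 10, 8 of the 11 were positive and the median was 0.19. In 42MGBA 4 of 11 were positive with a median of -0.08, in HCT116 4 of 11 with -0.11, and 0 passed in either.

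Clone 10 stood apart in these genes. Relative to the mean of the corrected H4 arrays, the 11 targets had a median of 0.19 on the parental array (8 of 11 above), 1.02 on clone 10 (11 of 11 above) and 0.16 on clone 12 (9 of 11 above), against -0.02, -0.04 and 0.04 on corrected clones 8-1, 8-3 and 88-1. VEGFC measured in the same way was 0.24, 0.95 and 0.29 on the parental, clone 10 and clone 12 arrays. VEGFA did not share this order, at -0.15, 0.25 and 0.05 in the mutants and 0.45 in corrected clone 88-1, and ANGPTL4 was at 0.17, -0.14 and -0.03. PFKFB4 was also the third gene in likeness to VEGFC over the line-centred arrays (r = 0.90), after OSGIN1 (0.93), a target of the oxidative stress factor NRF2, and NEU1 (0.91), the lysosomal sialidase, and before AZI2 (0.89) and STK4 (0.89). The part that the level of the hypoxia target genes on clone 10 has in the VEGFC difference was not tested.

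**Figure D4:**
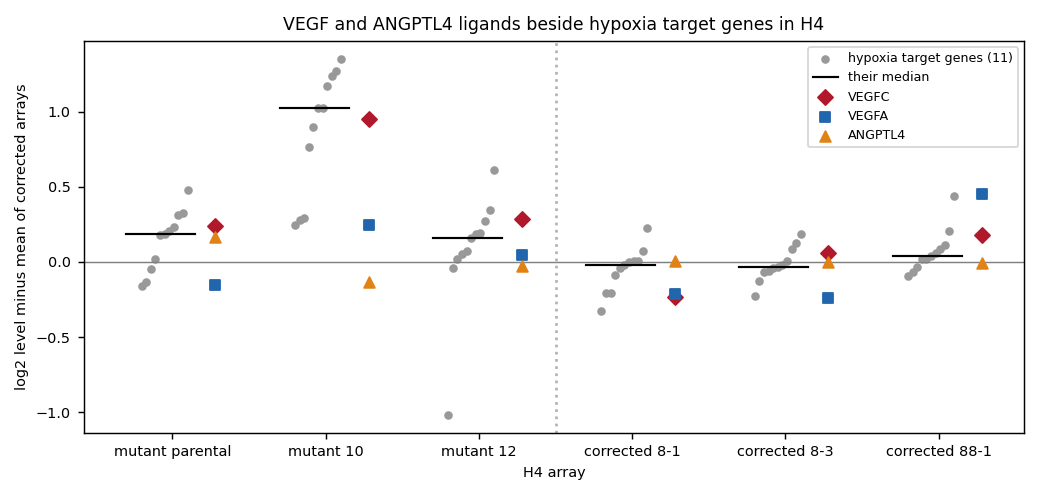
Log2 level minus the mean of the corrected arrays (vertical axis) on the 6 H4 arrays (horizontal axis; mutant left, corrected right of the dotted line) for 11 hypoxia target genes (grey points, line at their median), VEGFC (diamond), VEGFA (square) and ANGPTL4 (triangle). Clone 10 has a target median of 1.02 with VEGFC at 0.95, while VEGFA and ANGPTL4 there are at 0.25 and -0.14.

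The remaining lists of the pathway held few calls within lines. Other angiopoietin-like and VEGF ligands had 3 tested members (PGF, ANGPTL6 and ANGPTL8), genes that process VEGFC 7, other secreted pro-angiogenic factors 13 and secreted anti-angiogenic factors 8, and 0 of each passed in H4, 42MGBA or HCT116. ADAMTS3, the protease that cuts VEGFC into its active form, read 8.03 ± 0.16 in H4 mutants and 7.56 ± 0.18 in corrected clones (SD, n = 3 each; difference 0.47, SE 0.33, limma adjusted p = 0.535). CCBE1, its cofactor, was under the median in every group. Between corrected H4 and wild-type HCT116, 7 pro-angiogenic factors passed as higher and 2 as lower of 13, and 5 anti-angiogenic factors as higher and 1 as lower of 8, against 23.7% higher and 29.0% lower of all genes tested. For the processing genes these counts were 2 and 2 of 7, and for the other ligands 0 and 2 of 3. They were 3 and 2 of 7 for the hypoxia-inducible factors and regulators, 4 and 1 of 11 for the hypoxia targets and 2 and 3 of 10 for the PPAR list. Of the marker lists, 3 mesenchymal and glial markers passed as higher and 1 as lower of 6, 0 epithelial markers as higher and 6 as lower of 7, and 0 endothelial markers as higher and 1 as lower of 4, and none of these lists had a member past the threshold within a line. Several genes counted between corrected H4 and wild-type HCT116 were tested only through lines where they are high. Among them were HGF, ADAMTS1, ADAMTS3, VIM, CDH2, EPCAM and CDH1. A difference was built in for these, so the counts between lines support nothing.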

How the data were processed

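Total RNA of 16 cultures was measured on 1 array each. The deposited table holds log2 expression levels of 33297 probe sets, which the authors summarised by RMA in Affymetrix Expression Console, per the submitters' processing notes; versions, settings and genome build are not given in the sources used here, and the log2 scale was read from the range of values. Samples were grouped from their titles. No pair of arrays was identical, and arrays of a line correlated at 0.986 or more.

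Probe sets were named through the platform annotation, updated to RefSeq (GRCh38.p14): 19460 had 1 gene, 1754 several and 12083 were not listed. The probe set with the highest mean represented a gene, and a gene was tested if above the array median on at least 2 arrays. The model was limma 3.58.1 (R 4.3.3) on all 16 arrays in 6 groups with 1 shared spread per gene, two-sided, Benjamini-Hochberg adjusted over 12978 genes, threshold 0.05; the procedure was tested on simulated data. With a shared spread, SEs understate the error of a gene that varies more in 1 line.

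The members, the 11 gene lists and the tests were chosen with earlier results of these data known. Named were all members, STAG2, up to 3 genes per list with the smallest p in H4 and 42MGBA, neighbours of ANGPT2 and of members past the threshold, and the 5 genes most like ANGPT2, ANGPTL4, VEGFA and VEGFC; others are said to be chosen later. Alternatives were no filter, quantile normalization, the mean of a gene's probe sets, an intensity trend, no parental arrays, sister clones averaged, the spread of 1 line, parent clones as a block and each array left out. Clone names give the pairing of 42MGBA clones (53 with 53-1 and 53-7, 92 with 92-6).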

Additional observations from a re-analysis of the deposited data

How the results depend on the processing

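With few arrays a group and no detection calls, low levels such as those of TEK and TIE1 and small differences are poorly resolved. The 4 member calls between corrected H4 and wild-type HCT116 as higher, and that of ANGPTL4 as lower, were kept under every alternative tried. For ANGPT1, VEGFC and ANGPTL4, tested only through the lines where they are high, a difference was built into their being tested. ANGPT2 in HCT116 stayed between 2.92 and 3.21 when single arrays were left out. Genes past the threshold in H4 numbered 429, but 165 with sister clones averaged, 34 with the spread of the line alone and 169 to 631 with single arrays left out. In HCT116 they numbered 17, but 10 with an intensity trend, 10 with sister clones averaged, 3 with the spread of the line alone and 5 to 77 with single arrays left out. For the difference between H4 and 42MGBA the count of 33 became 83 without the parental arrays, 6 with sister clones averaged and 12 to 111 with single arrays left out, and in 42MGBA the count of 0 became 0 to 9. Small differences that did not pass changed sign. In H4 these were ANGPT1 at 0.0092 and ANGPTL4 at -0.083 without the parental arrays, VEGFA at -0.066 with sister clones averaged, and, with single arrays left out, ANGPT1 from -0.20 to 0.072, ANGPT2 from -0.17 to 0.044, ANGPTL4 from -0.083 to 0.069 and VEGFA from -0.073 to 0.27. In 42MGBA, ANGPT2 was 0.009 after quantile normalization, 0.062 without the parental array, 0.052 with sister clones averaged and 0.086 with the replicate block, and, with single arrays left out, ANGPT2 ranged from -0.11 to 0.069, ANGPTL4 from -0.13 to 0.13 and VEGFB from -0.20 to 0.069. For the difference between these lines, ANGPTL4 was 0.0009 with sister clones averaged and VEGFB 0.055 without the parental arrays, and with single arrays left out ANGPT2 ranged from -0.17 to 0.047, ANGPTL4 from -0.13 to 0.13 and VEGFB from -0.22 to 0.047. ANGPTL4 in H4 mutants against HCT116 knockouts passed without clone 53-7 (limma adjusted p = 0.0486), so that 4 to 5 members passed there. The replicate block of parent clones in 42MGBA, fitted on the clones alone, changed no call: 0 genes passed, with 1032 at an unadjusted p under 0.05. The causes of these changes were not tested, beyond the fewer arrays that some of the alternatives hold.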

Other observations

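Secreted factors outside the listed members also differed between H4 and HCT116 with functional STAG2. The genes of this paragraph were chosen after their values were seen, so their p-values support nothing. In this comparison 23.7% of all genes tested passed as higher in H4 and 29.0% as lower, and line and batch cannot be told apart. THBS1, the matrix protein thrombospondin-1, which inhibits vessel growth, read 11.98 ± 0.18 in corrected H4 (SD, n = 3) and 7.41 ± 0.33 in wild-type HCT116 (SD, n = 2), a difference of 4.58 (SE 0.19, limma adjusted p = 5.62e-11). SEMA3A, a semaphorin that binds NRP1, was 3.43 higher in H4 (SE 0.63, limma adjusted p = 0.000318). PGF, the placental growth factor that binds FLT1, was 0.47 lower in H4 (SE 0.14, limma adjusted p = 0.00925).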
